A study of Rattus norvegicus with 43 samples.

Results

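The comparison described here is mammary gland of rats fed 9-cis retinoic acid (9cRA) set against mammary gland of rats fed diet alone. It rests on 8 arrays chosen by their sample titles, 4 of 9cRA and 4 of diet, out of 43 arrays in the whole series, and on all 8740 probe sets that are not controls. The animals were female rats of the outbred Sprague-Dawley stock, and treatment began at 100 days of age and lasted 7 days. The 9cRA group received 100 mg of 9cRA per kg diet, the Targretin group 60 mg of Targretin per kg body weight by gavage, the 4HPR group 782 mg of 4-hydroxyphenylretinamide per kg diet, and the diet group no agent. The 3 Targretin arrays and 3 4HPR arrays of mammary gland entered the fit that estimates the spread, while the contrast itself used 9cRA and diet only. The labels name no gavage control. Nor do they tie each array to its own animal, so p-values measure only the spread between arrays, which may be technical.

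Retinoic acid signals through nuclear receptors that bind DNA in pairs, an RAR (retinoic acid receptor) with an RXR (retinoid X receptor). The 9-cis isomer binds both kinds of receptor, and RXR also pairs with receptors for thyroid hormone, vitamin D, fatty acids and oxysterols. In the mammary gland, ducts and secretory epithelium lie in a pad of white fat, so an extract of the whole gland mixes RNA of epithelium, adipocytes, stroma and immune cells. In such bulk RNA, fewer cells of a type and less RNA per cell cannot be told apart.

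Each array gives 1 signal per probe set, scaled by the authors so that arrays have about the same mean. Median signal was 371.2 to 441.4 on 9cRA arrays and 351.4 to 399.6 on diet arrays. The tissue label was checked against defining transcripts. Csn1s1, a casein of milk, read 22416, 57490.2, 100653 and 102075 on 9cRA arrays 1 to 4, against 55001, 59872, 59741 and 78482 on diet arrays 1 to 4. Fabp4, the fatty acid binding protein of fat cells, read 46804, 40991, 77427 and 49603 on 9cRA arrays 1 to 4, against 68424, 46453, 50918 and 56908 on diet arrays 1 to 4. Both kinds of transcript were thus high in both groups, but the milk transcripts varied widely: Wap, whey acidic protein, read 1003, 9600.1, 2301 and 67192 on 9cRA arrays 1 to 4, against 1428, 13652, 11922 and 8151 on diet arrays 1 to 4. The summed signal of 21 milk and secretory genes ran from 131178 to 625406 on 9cRA arrays and from 184783 to 292067 on diet arrays, with the highest on 9cRA array 4 and the lowest on 9cRA array 1. Transcripts of liver and lung were also present: Alb, serum albumin, read 14906 to 35000.2 on 9cRA arrays, against 11379 to 43645 on diet arrays, and Sftpc, a surfactant protein of lung, read 1148 to 5635 on 9cRA arrays, against 659.8 to 7756 on diet arrays. Control probe sets at the 3′ end of beta-actin, a transcript of nearly all cells, read 33738, 35667, 27155 and 19134.5 on 9cRA arrays, against 23897, 11028, 9685 and 19685 on diet arrays. Those of GAPDH, a glycolytic enzyme, read 12185, 11094, 11711 and 5619 on 9cRA arrays, against 9063, 2592, 2988 and 6127 on diet arrays. Diet arrays 2 and 3 were the lowest of the 8 on both, and they were the most alike of all pairs among the 8 arrays (Pearson r = 0.961 over tested probe sets). The ratio of 3′ to 5′ signal, a sign of RNA quality, was 3.34 to 5.62 on 9cRA arrays and 3.71 to 6.21 on diet arrays for beta-actin, and 2.45 to 3.65 on 9cRA arrays and 2.48 to 3.20 on diet arrays for GAPDH. The part of these array differences in the results that follow was not tested.

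**Figure D1:**
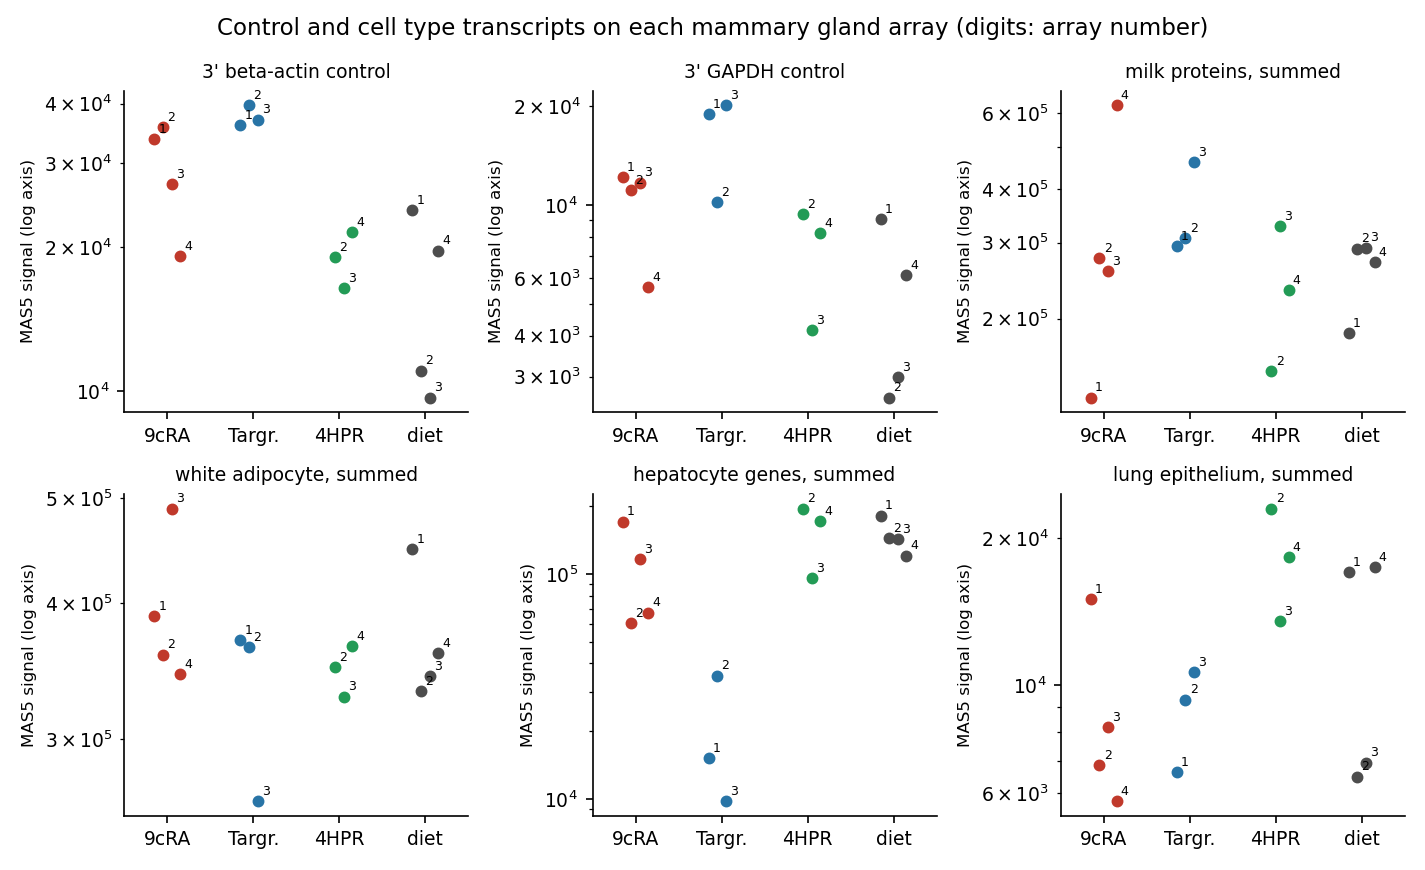
MAS5 signal on a log axis for each mammary gland array of the 9cRA, Targretin, 4HPR and diet groups, 1 point per array with its array number, for 2 control transcripts and 4 summed lists of cell type genes. Diet arrays 2 and 3 have the lowest beta-actin and GAPDH control signals, and 9cRA array 4 has the highest summed milk signal.

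No probe set passed the test between 9cRA and diet. Of 6059 probe sets tested by limma (on the log2 scale, after 38.1 was added to each signal as a pseudocount), 0 had an adjusted p under 0.05 (0%), and the smallest adjusted p was 0.131. At an unadjusted p under 0.05 there were 1130 probe sets (18.6%), of which 639 (10.5%) were higher and 491 (8.10%) lower with 9cRA. The 4 arrays of 9cRA lay above all 4 diet arrays for 217 probe sets (3.58%) and below all 4 for 177 (2.92%), together 6.50%. The median log2 difference over all tested probe sets was 0.03, with 3235 above 0 and 2824 below, and 343 probe sets differed by at least 1 on the log2 scale. Which arrays were in the fit decided whether any call was made. Without diet array 1, limma called 147 probe sets (2.43%), 83 higher (1.37%) and 64 lower (1.06%), in 120 named genes. Without 9cRA array 4 it called 2, without 9cRA array 3 it called 1, and without any other single 9cRA or diet array it called 0. The count at an unadjusted p under 0.05 was 717 without diet array 2, 700 without diet array 3, 361 without both, and 1419 without diet array 1. Values in mammary gland are therefore given without a call of a rise or a fall.

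**Figure D2:**
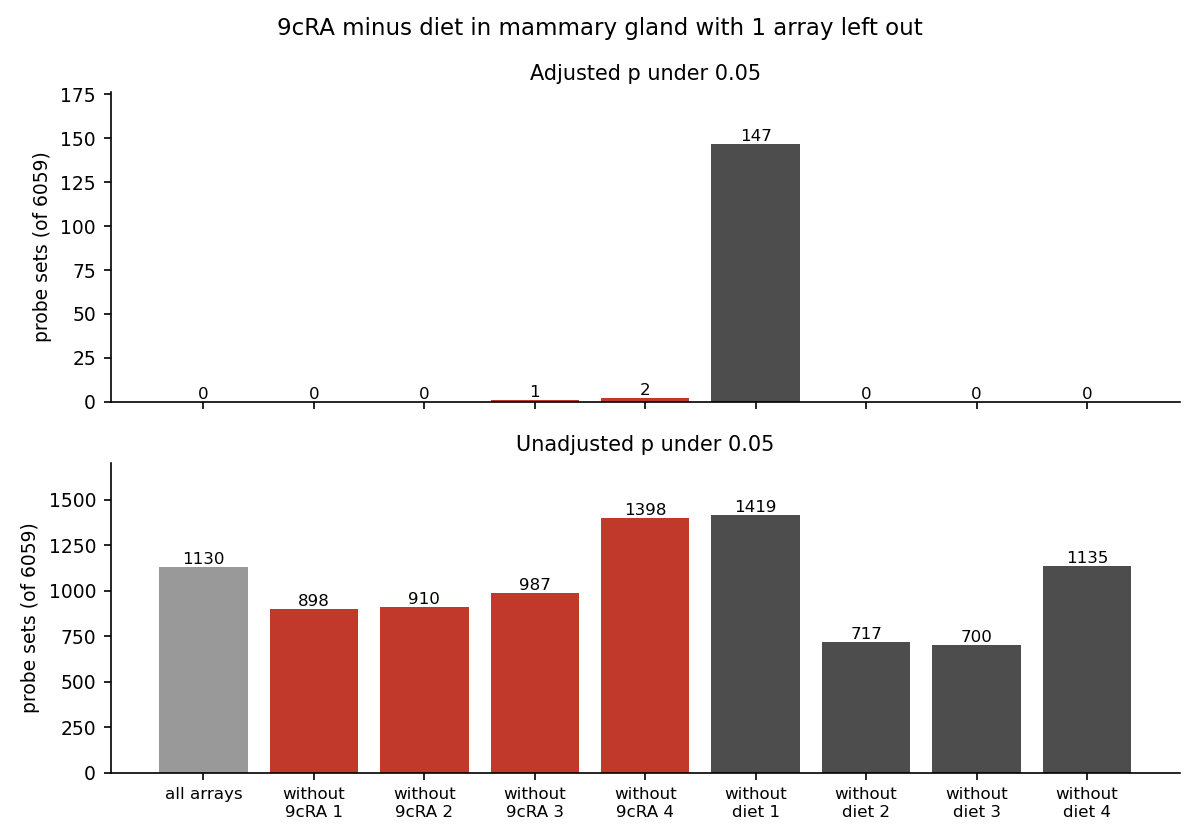
Number of probe sets, of 6059 tested, at an adjusted p under 0.05 (upper bars) and at an unadjusted p under 0.05 (lower bars) for 9cRA minus diet in mammary gland, with all arrays and with each 9cRA or diet array left out in turn. The adjusted count is 147 without diet array 1 and at most 2 otherwise.

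The 20 genes with the smallest p are described next, as measurements that did not pass (adjusted p 0.131 to 0.14). Of these, 10 averaged higher and 10 lower on 9cRA arrays. For 17 the groups did not overlap, beside 6.50% of all tested probe sets. Without diet array 1, 19 of the 20 passed, in the fit that called 147 probe sets. No fit without another single 9cRA or diet array called more than 2. The choice of the smallest p on these same values favours both results, so neither is support for the genes. Differences are log2 differences, 9cRA minus diet, with the standard error of limma, and signals are means ± SD over 4 arrays where arrays are not given 1 by 1. The pseudocount makes a log2 difference of a dim probe set smaller than the ratio of its signals. A probe set was tested if it exceeded the array's 40th percentile on at least 3 of the 14 mammary gland arrays. A set dim on all diet arrays can thus enter through the groups where it is high, which favours a difference.

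Afdn, which encodes afadin, a scaffold that ties adherens junctions to actin, read 420, 472, 452 and 419.7 on 9cRA arrays 1 to 4, against 157, 126, 135 and 164 on diet arrays 1 to 4. All 4 9cRA arrays were above all 4 diet arrays, and each group was narrow. The log2 difference was 1.39 ± 0.27 (adjusted p = 0.131), with a 95% interval of 0.82 to 1.96, although the other 2 tested probe sets of Afdn gave 0.16 ± 0.25 and 0.20 ± 0.36. Ung, uracil-DNA glycosylase of base excision repair, read 362, 304, 334 and 386 on 9cRA arrays 1 to 4, against 66.6, 60.3, 46.5 and 84.1 on diet arrays 1 to 4. It had the widest difference among the 20 genes, 1.92 ± 0.39 (adjusted p = 0.131), and the groups lay far apart. The diet values of Ung lay near the pseudocount of 38.1, so the size of this difference is limited by background. Ace, the angiotensin converting enzyme of vessel walls, read 1901, 2231, 1017 and 1136 on 9cRA arrays 1 to 4, against 704, 619, 726 and 674 on diet arrays 1 to 4, a difference of 1.09 ± 0.23 (adjusted p = 0.131). The diet arrays were nearly level, and 9cRA arrays 1 and 2 were above 9cRA arrays 3 and 4.

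Star, the steroidogenic acute regulatory protein that carries cholesterol into mitochondria, read 1704, 684, 477 and 1529.7 on 9cRA arrays 1 to 4, against 199, 245, 281 and 451 on diet arrays 1 to 4. The groups did not overlap, with a difference of 1.65 ± 0.35 (adjusted p = 0.131), and the other probe set of Star gave 1.22 ± 0.59 with overlapping groups. Star was the 1 gene of the 20 that did not pass without diet array 1. Fn1, which encodes the matrix protein fibronectin, read 1334, 1684, 950.4 and 472 on 9cRA arrays 1 to 4, against 420.4, 213, 231 and 317 on diet arrays 1 to 4 on its probe set with the smallest p, a difference of 1.69 ± 0.36 (adjusted p = 0.131). Its brightest probe set read 25485, 24034, 30723 and 14893 on 9cRA arrays 1 to 4, against 18390.2, 17749, 18592 and 22123 on diet arrays 1 to 4, with overlapping groups and a difference of 0.27 ± 0.24, and its last tested probe set gave 0.84 ± 0.49. Fn1 was thus far apart on 1 probe set and close on another.

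Sec61a1, a subunit of the channel through which proteins enter the endoplasmic reticulum, averaged 567 ± 55.9 on 9cRA arrays, against 277 ± 53.4 on diet arrays, a difference of 0.95 ± 0.21 with no overlap. Arpc1b, a subunit of the Arp2/3 complex that nucleates actin, averaged 6240.1 ± 1740.3 on 9cRA arrays, against 2768 ± 965 on diet arrays, a difference of 1.18 ± 0.27, and 9cRA array 3 lay below diet array 1, while its partner probe set gave 0.50 ± 0.26 with overlapping groups. Ier3, an immediate early gene that affects cell survival, averaged 509 ± 109.9 on 9cRA arrays, against 190.2 ± 116 on diet arrays, a difference of 1.36 ± 0.31 with no overlap, while its partner probe set on the same sequence gave 0.33 ± 0.27 with overlapping groups. Dkc1, the pseudouridine synthase dyskerin, averaged 551 ± 177 on 9cRA arrays, against 169 ± 102 on diet arrays, a difference of 1.58 ± 0.36 with overlap of 9cRA array 4 and diet array 1, and its partner probe set gave 0.52 ± 0.30. Crp, C-reactive protein, averaged 4296 ± 776 on 9cRA arrays, against 1981 ± 677 on diet arrays, a difference of 1.15 ± 0.26 with no overlap. That Crp probe set carries the array's suffix for sets that can read several related transcripts, so its gene is uncertain. Another probe set of Crp without that suffix, whose signal averaged 21092 in diet liver, where Crp is made, gave 0.10 ± 0.37 with overlapping groups, and the last, also with the suffix, gave 1.28 ± 0.38. The first set averaged 1493 in diet liver and 2587.5 in diet lung, while the set without the suffix averaged 435 in diet lung.

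Among the 10 genes that averaged lower, Cxcl14, a chemokine of epithelia, read 6297, 3507, 3581 and 4412 on 9cRA arrays 1 to 4, against 10052, 9861, 9114 and 10041 on diet arrays 1 to 4. The diet arrays were nearly level and all above the 9cRA arrays, with a difference of -1.17 ± 0.24 (adjusted p = 0.131), while the partner probe set on the same sequence gave -0.24 ± 0.32. Chordc1, a co-chaperone of HSP90, read 733, 876, 689.5 and 433 on 9cRA arrays 1 to 4, against 1168, 1740.2, 2026 and 1265 on diet arrays 1 to 4, a difference of -1.14 ± 0.23 with no overlap. Pigf, an enzyme of membrane anchor synthesis, read 652, 790, 791 and 1165 on 9cRA arrays 1 to 4, against 1733, 1434, 1718 and 2309.6 on diet arrays 1 to 4, a difference of -1.06 ± 0.22 with no overlap, while its partner probe set gave -0.30 ± 0.54. For Cxcl14, Chordc1 and Pigf every 9cRA array lay below every diet array. Aadat, an aminotransferase of lysine and tryptophan breakdown, read 927, 640.1, 260 and 1413 on 9cRA arrays 1 to 4, against 1551, 3994, 4195 and 1832 on diet arrays 1 to 4. Its difference of -1.87 ± 0.42 (adjusted p = 0.14) was the lowest of the 20 genes, and its second probe set gave -1.83 ± 0.42 with overlapping groups. Nfe2l2, which encodes NRF2, the activator of antioxidant genes, read 1337, 1262, 1652 and 902 on 9cRA arrays 1 to 4, against 2084, 3036, 5985 and 2421 on diet arrays 1 to 4. Both of its probe sets separated the groups, with differences of -1.27 ± 0.29 and -0.78 ± 0.20.

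Twf1, twinfilin, which binds actin monomers, averaged 4095 ± 813 on 9cRA arrays, against 8122 ± 1960.1 on diet arrays, a difference of -0.97 ± 0.20. Aifm2, an oxidoreductase of coenzyme Q that protects cells from lipid peroxidation, averaged 853 ± 147 on 9cRA arrays, against 1758 ± 389 on diet arrays, a difference of -0.999 ± 0.21. For both, the groups did not overlap on this probe set, and the partner probe set on the same sequence gave differences near 0 (-0.10 ± 0.27 for Twf1 and -0.01 ± 0.38 for Aifm2). Rev1, a polymerase that copies past damaged bases, averaged 777 ± 248 on 9cRA arrays, against 1674 ± 417 on diet arrays, a difference of -1.10 ± 0.24. Pcm1, a protein of centriolar satellites, averaged 747 ± 103 on 9cRA arrays, against 1328 ± 242 on diet arrays, a difference of -0.79 ± 0.18. Serinc3, a membrane protein of the serine incorporator family, averaged 4624 ± 1018 on 9cRA arrays, against 9206 ± 2461 on diet arrays, a difference of -0.97 ± 0.22 with overlap of 9cRA array 4 and diet array 1, and its partner probe set gave -0.66 ± 0.31. Of the 20 genes, 14 have further probe sets on the array, and of the 17 of these that were tested, only that of Nfe2l2 separated the groups.

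**Figure D3:**
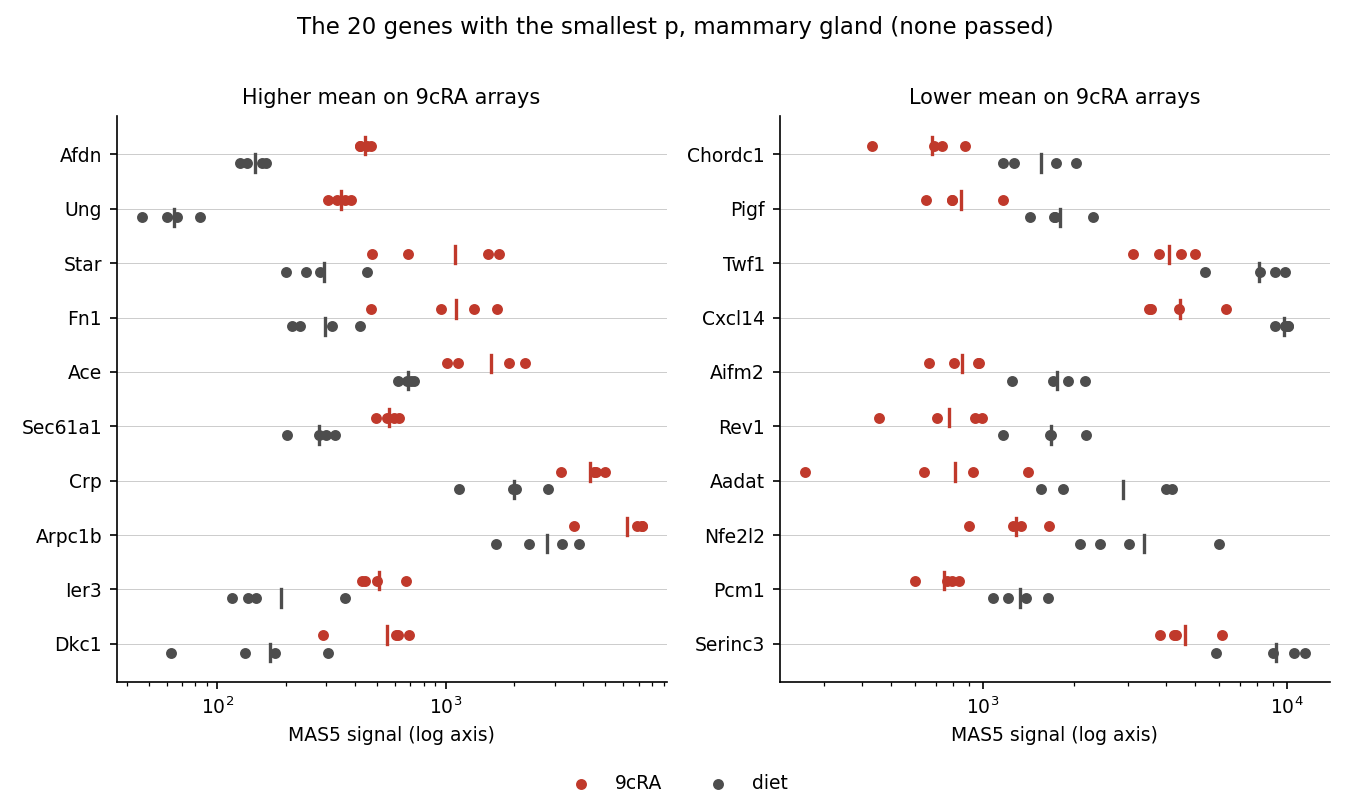
MAS5 signal on a log axis for the 20 genes with the smallest p, 1 probe set per gene, with 9cRA arrays above diet arrays in each row and a bar at each group mean (n = 4 each). The groups do not overlap for 17 genes, and Arpc1b, Dkc1 and Serinc3 are the exceptions.

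Retinoid receptors bind pairs of short repeats, and the RefSeq promoters (build GRCr8) of the 20 genes, 250 bases before to 50 bases after the start, were searched on both strands for the repeat units AGGTCA and AGTTCA. Promoter sequence was at hand for 14 of the 20 genes, and 4 of these held at least 1 unit, a share close to the 27.9% of all 33469 promoters of the table. Aadat and Aifm2 held 2 units each, while 5.41% of all promoters held at least 2, and they are shown for that reason, 5′ to 3′ on the gene's strand with the units in capitals (AGTTCA reads TGAACT where it lies on the other strand). Aadat lies on chr16:34555131-34555430, minus strand, and Aifm2 on chr20:30207579-30207878, plus strand.
Aadat: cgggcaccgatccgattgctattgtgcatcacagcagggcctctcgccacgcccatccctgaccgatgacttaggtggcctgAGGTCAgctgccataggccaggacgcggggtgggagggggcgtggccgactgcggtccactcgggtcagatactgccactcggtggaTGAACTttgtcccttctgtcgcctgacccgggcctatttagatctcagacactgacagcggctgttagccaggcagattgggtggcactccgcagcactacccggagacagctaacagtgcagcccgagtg
Aifm2: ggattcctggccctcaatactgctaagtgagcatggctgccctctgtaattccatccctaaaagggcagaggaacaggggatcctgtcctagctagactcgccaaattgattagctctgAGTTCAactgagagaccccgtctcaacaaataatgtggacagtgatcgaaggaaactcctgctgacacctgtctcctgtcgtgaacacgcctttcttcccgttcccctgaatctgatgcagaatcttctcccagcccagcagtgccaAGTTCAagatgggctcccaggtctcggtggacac
In Aadat the units begin 168 and 81 bases before the start. In Aifm2 1 begins 131 bases before and 1 begins 16 bases after it. The search was for single units without regard to spacing, and in neither promoter do the 2 units lie next to each other. A match is a description of the letters only.

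Differences also varied with how a probe set was designed. Probe sets whose names begin with rc_, the array maker's mark for designs on the reverse complement of a sequence entry, were 41.3% of the tested sets (2505 of 6059). Their median log2 difference was -0.07, against 0.12 for the 3554 others, and after quantile normalization the medians were -0.11 and 0.05. Of the rc_ sets, 2.12% lay wholly higher on 9cRA arrays and 4.31% wholly lower, while of the others 4.61% lay wholly higher and 1.94% wholly lower. Among the 20 genes, 1 of the 10 higher and 8 of the 10 lower probe sets were rc_ sets. In Targretin minus diet, which shares the diet arrays, the medians were -0.01 for rc_ sets and 0.21 for the others. In 4HPR minus diet, which shares them too, the medians were closer together, -0.04 for rc_ sets and 0.01 for the others. There were 617 tested pairs of probe sets made from the same sequence. In 390 of the pairs (63.2%) both members differed in the same direction, their median gap was 0.38, and in 42 pairs the members were at least 1 apart on the log2 scale. The part of probe design in the single-gene values was not tested.

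Gene groups are given with 1 probe set per gene, the tested one with the highest mean signal, and summed signals cover every listed gene on the array. Each count of members at an unadjusted p under 0.05 is to be read against the shares over all tested probe sets, 10.5% higher and 8.10% lower. Genes that carry, make or break down retinoids, or that encode their receptors, showed no call and no common direction. Of 34 listed genes 19 were on the array and 16 were tested. None passed in either direction, 0 were higher and 1 was lower at an unadjusted p under 0.05, 8 differences were above 0 and 8 below, and the median was -0.01, beside 0.03 over all tested probe sets. Among the receptors, Rara averaged 3870 ± 1106 on 9cRA arrays, against 2861 ± 1082 on diet arrays, a difference of 0.44 ± 0.27 with overlapping groups, and its other tested probe set gave 0.08 ± 0.36. Rxra read 136 to 481 on 9cRA arrays, against 176 to 334 on diet arrays, Rxrb 492 to 1105 on 9cRA arrays, against 667 to 1079.9 on diet arrays, and Rxrg 1215 to 3093 on 9cRA arrays, against 1330.2 to 1740.2 on diet arrays, so that each receptor's groups overlapped. Rarb, the receptor gene best known as a target of retinoic acid, stayed below the filter, with signals of 79.4, 81.1, 123 and 76.7 on 9cRA arrays 1 to 4, against 70.4, 76.5, 72.1 and 82.7 on diet arrays 1 to 4.

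Of the binding proteins, Crabp2, which delivers retinoic acid to RAR, read 905, 944, 1337 and 2086 on 9cRA arrays 1 to 4, against 834, 610.1, 753 and 1299.6 on diet arrays 1 to 4, a difference of 0.54 ± 0.42. Fabp5, a fatty acid binding protein that can carry retinoic acid, read 11359, 11203, 18011 and 14750.1 on 9cRA arrays 1 to 4, against 13809.7, 8251, 8481 and 9443 on diet arrays 1 to 4, a difference of 0.47 ± 0.25 (adjusted p = 0.327). The highest diet array, array 4 for Crabp2 and array 1 for Fabp5, lay among the 9cRA values. Crabp1 read 899 to 2465 on 9cRA arrays, against 768 to 1408 on diet arrays. Rbp4, the carrier of retinol in plasma, averaged 30597 ± 4861 on 9cRA arrays, against 38781 ± 4447 on diet arrays, a difference of -0.35 ± 0.19, and its 2 other probe sets gave -0.06 ± 0.32 and 0.36 ± 0.39. Ttr, transthyretin, the partner of Rbp4 in plasma and a transcript of liver, read 11242, 3192, 7712 and 4303 on 9cRA arrays 1 to 4, against 13053, 15078, 15054 and 11259.8 on diet arrays 1 to 4. The groups just failed to meet, with a difference of -1.20 ± 0.42 (adjusted p = 0.167), and the other probe set gave -0.29 ± 0.34. Ttr belongs also to the hepatocyte genes described below.

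Among the enzymes, Cyp26b1, which oxidises retinoic acid, read 58.4, 244, 396 and 86.8 on 9cRA arrays 1 to 4, against 562, 59.4, 34.9 and 569 on diet arrays 1 to 4. The diet arrays were split, with 1 and 4 above all 9cRA arrays and 2 and 3 near or below the lowest. Cyp2c22, a retinoic acid hydroxylase of rat liver, read 5134, 1746, 3059.8 and 1098 on 9cRA arrays 1 to 4, against 5222, 817, 447 and 3213 on diet arrays 1 to 4, with both groups spread over a wide range. Aldh1a1, a retinaldehyde dehydrogenase, read 726 to 988 on 9cRA arrays, against 795 to 1166 on diet arrays, and Aldh1a2, another, 31.6 to 545 on 9cRA arrays, against 63.5 to 310.4 on diet arrays. The retinol and sterol dehydrogenases Rdh7, Rdh10 and Rdh16 also overlapped, with Rdh10 reading 232 to 557 on 9cRA arrays, against 335 to 528 on diet arrays. Rbp2 and Adh7 stayed below the filter in mammary gland.

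**Figure D4:**
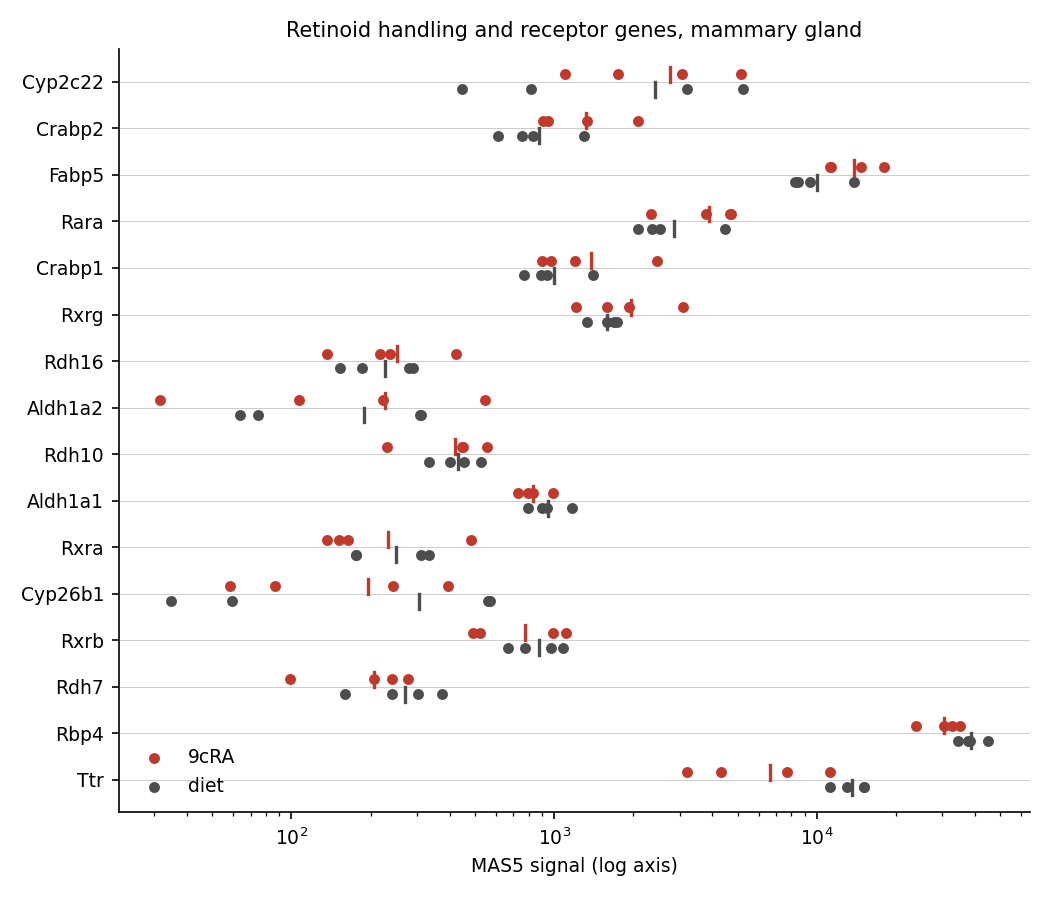
MAS5 signal on a log axis for the 16 tested retinoid genes, 1 probe set per gene, with 9cRA arrays above diet arrays in each row and a bar at each group mean (n = 4 each). Only Ttr has groups that do not overlap, and the differences run from -1.20 for Ttr to 0.55 for Cyp2c22.

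Genes of the mammary epithelium and of its hormone response gave no call. Of 22 tested epithelial genes 0 passed, while 3 were higher and 3 lower at an unadjusted p under 0.05, with a median of 0.23 and a summed signal from 78278 to 139371 on 9cRA arrays and from 93493 to 117566 on diet arrays. Of 17 tested genes of the estrogen, progesterone and prolactin response 0 passed, while 2 were higher and 2 lower at an unadjusted p, with a median of 0.15. Areg, amphiregulin, an EGF receptor ligand that estrogen induces in ducts, read 4485, 2234, 3231 and 1701 on 9cRA arrays 1 to 4, against 6801, 15136, 14337 and 4101 on diet arrays 1 to 4. Diet arrays 2 and 3 were far above the rest, diet array 4 lay among the 9cRA arrays, and the difference was -1.68 ± 0.62 (adjusted p = 0.184). Erbb3, a receptor kinase of luminal cells, averaged 509.8 ± 136 on 9cRA arrays, against 292 ± 56.9 on diet arrays, a difference of 0.71 ± 0.22. Igf1r, the receptor of insulin-like growth factor 1, read 620.2, 813, 807 and 1013 on 9cRA arrays 1 to 4, against 589, 483, 444 and 365 on diet arrays 1 to 4, with no overlap and a difference of 0.74 ± 0.21 (adjusted p = 0.144). Its other probe set gave 1.05 ± 0.58 with overlapping groups. On that set diet array 4 stood apart at 5.8, against 326.2 to 509.8 on the other diet arrays. Acta2, the actin of myoepithelium and smooth muscle, averaged 24693 ± 5914 on 9cRA arrays, against 34682 ± 5253 on diet arrays on its brightest probe set, a difference of -0.51 ± 0.18, while its 2 other probe sets gave 0.45 ± 0.23 and 0.94 ± 0.34. Of the 21 milk and secretory genes 0 passed, while 1 was higher and 0 lower at an unadjusted p, and the median was -0.06.

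White adipocyte genes likewise gave 0 calls of 29, while 3 were higher and 1 lower at an unadjusted p, with a median of 0.20 and a summed signal from 344506 to 488681 on 9cRA arrays and from 332132 to 448805 on diet arrays. Npr3, the clearance receptor of natriuretic peptides, read 572, 207, 605 and 244 on 9cRA arrays 1 to 4, against 995, 1888, 1945 and 690.3 on diet arrays 1 to 4, with no overlap and a difference of -1.68 ± 0.46 (adjusted p = 0.144). Car3, carbonic anhydrase 3, among the most abundant proteins of rat fat cells, read 44987, 45603, 31009 and 15827 on 9cRA arrays 1 to 4, against 26334, 10868, 10451 and 14693 on diet arrays 1 to 4, a difference of 1.13 ± 0.33 (adjusted p = 0.144), and 9cRA array 4 lay below diet array 1. The defining fat cell transcripts were close: Cfd, adipsin, differed by 0.12 ± 0.22, Fabp4 by -0.08 ± 0.24 and Lpl, lipoprotein lipase, by -0.26 ± 0.17, each with overlapping groups. Lep, leptin, read 4001 to 5612 on 9cRA arrays, against 3440 to 5389 on diet arrays on its brightest probe set.

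Genes of fatty acid oxidation and PPAR targets, which RXR ligands can induce, were balanced: of 34 tested 0 passed, while 4 were higher and 3 lower at an unadjusted p, and 17 differences were above 0 and 17 below. Slc25a20, the carnitine carrier of mitochondria, read 1263, 1528, 1109 and 1315 on 9cRA arrays 1 to 4, against 846, 525, 894 and 1005 on diet arrays 1 to 4, with no overlap and a difference of 0.68 ± 0.21 (adjusted p = 0.149). Acadvl, the very long chain acyl-CoA dehydrogenase, averaged 693 ± 280.4 on 9cRA arrays, against 314 ± 195 on diet arrays, a difference of 1.12 ± 0.37. Of 14 fatty acid synthesis and LXR targets 0 passed, while 1 was higher and 1 lower at an unadjusted p. Nr1h2, the oxysterol receptor LXR-beta, averaged 2447 ± 732 on 9cRA arrays, against 1392 ± 457 on diet arrays, a difference of 0.80 ± 0.25, and Elovl5, a fatty acid elongase, averaged 12756 ± 4077 on 9cRA arrays, against 19900.2 ± 7779 on diet arrays, a difference of -0.60 ± 0.25. Of 13 cholesterol synthesis genes 0 passed, while 2 were higher and 2 lower at an unadjusted p, with Fdps, farnesyl diphosphate synthase, at 0.93 ± 0.32 and Insig1, which restrains sterol synthesis, at -0.69 ± 0.26 (-0.23 ± 0.35 on its partner probe set). Of the other probe sets of Fdps, 1 gave 1.78 ± 0.57 and 1 had the opposite sign (-0.23 ± 0.30).

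Immune genes gave no call either. Of 23 tested macrophage and antigen presenting cell genes 0 passed, while 7 were higher and 0 lower at an unadjusted p under 0.05, where 10.5% of all tested probe sets were higher and 8.10% lower. The list's median was 0.29, against 0.03 over all tested probe sets, and its summed signal ran from 105707 to 158391 on 9cRA arrays and from 103833 to 129907 on diet arrays. RT1-Ba, a chain of the rat class II molecule, read 3943, 6224, 2989 and 1657 on 9cRA arrays 1 to 4, against 1507, 869.5, 1403 and 1687 on diet arrays 1 to 4, a difference of 1.30 ± 0.36 (adjusted p = 0.144), with 9cRA array 4 among the diet values, and its 2 other probe sets gave 0.53 ± 0.28 and -0.16 ± 0.42. RT1-DMb, which helps load class II molecules with peptide, averaged 2419 ± 852 on 9cRA arrays, against 1477 ± 384 on diet arrays, a difference of 0.67 ± 0.24, and its other tested probe set gave 0.79 ± 0.32. Cd74, the invariant chain of class II molecules, averaged 18977 ± 3769 on 9cRA arrays, against 13196 ± 2435 on diet arrays on its brightest probe set, a difference of 0.52 ± 0.21, and its 3 other probe sets gave 0.83 ± 0.26, 1.13 ± 0.44 and 1.32 ± 0.43. Of 21 T and natural killer cell genes 0 passed, while 4 were higher and 0 lower at an unadjusted p, with a median of 0.27 and a summed signal from 18887 to 25332 on 9cRA arrays and from 17922 to 25715 on diet arrays. Cd5, a T cell surface protein, read 519, 387, 433 and 266 on 9cRA arrays 1 to 4, against 223, 109, 154 and 112 on diet arrays 1 to 4, with no overlap and a difference of 1.24 ± 0.33 (adjusted p = 0.144). Coro1a, an actin binding protein of leukocytes, read 2591, 1299, 546 and 794 on 9cRA arrays 1 to 4, against 342, 241, 271 and 629 on diet arrays 1 to 4, a difference of 1.57 ± 0.40 (adjusted p = 0.144). For Coro1a, 9cRA array 1 was far above the rest, and 9cRA array 3 lay below diet array 4. Of 14 interferon response and class I genes 0 passed, while 3 were higher and 1 lower at an unadjusted p. Tap2, a peptide transporter, averaged 854 ± 244 on 9cRA arrays, against 469 ± 126 on diet arrays, a difference of 0.80 ± 0.26. Tap1, its partner, read 1149, 1082, 935 and 1257 on 9cRA arrays 1 to 4, against 794, 761, 496 and 47.5 on diet arrays 1 to 4, a difference of 1.45 ± 0.53 in which diet array 4 stood apart, and its other probe set gave 0.33 ± 0.61.

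Immediate early and stress genes gave 0 calls. Of 29 tested immediate early genes, 0 were higher and 3 lower at an unadjusted p (10.5% of all tested probe sets were higher and 8.10% lower), 21 differences were below 0, the median was -0.20, and the summed signal ran from 58329.6 to 71621 on 9cRA arrays and from 69599 to 88256 on diet arrays. Sgk1, a kinase induced by glucocorticoids, read 727, 726, 880 and 652 on 9cRA arrays 1 to 4, against 1491, 1501, 1164 and 913 on diet arrays 1 to 4, with no overlap and a difference of -0.71 ± 0.22 (adjusted p = 0.15). Klf9, a transcription factor induced by glucocorticoids and thyroid hormone, averaged 6643 ± 2083 on 9cRA arrays, against 10905 ± 1617 on diet arrays, a difference of -0.76 ± 0.22, and its partner probe set gave 0.26 ± 0.23. Of 29 heat shock and unfolded protein genes, 2 were higher and 3 lower at an unadjusted p. Hsph1, a chaperone of the HSP110 family, read 1196, 1301, 1295 and 1331 on 9cRA arrays 1 to 4, against 1595, 3396, 2913 and 1779 on diet arrays 1 to 4, with no overlap and a difference of -0.83 ± 0.22 (adjusted p = 0.144). The 9cRA arrays were nearly level, and the diet arrays were split, with 2 and 3 high. P4hb, protein disulfide isomerase, averaged 8969 ± 3749 on 9cRA arrays, against 4333 ± 1392 on diet arrays, a difference of 0.99 ± 0.29, and its 2 other probe sets gave 0.18 ± 0.19 and 1.38 ± 0.42. Of 8 clock genes, 2 were higher and 2 lower at an unadjusted p, with the nuclear receptor Nr1d2 at -0.80 ± 0.21 and its relative Nr1d1 at 0.45 ± 0.19 and 0.56 ± 0.20 on 2 probe sets.

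Cell cycle genes gave 0 calls of 21, while 3 were higher and 0 lower at an unadjusted p, with a median of 0.26. Ccnb1, cyclin B1 of mitosis, read 475, 759, 1629 and 604 on 9cRA arrays 1 to 4, against 254, 344, 384 and 369 on diet arrays 1 to 4, with no overlap and a difference of 1.13 ± 0.30 (adjusted p = 0.144), and 9cRA array 3 was highest. Cdk4, a kinase of the entry into the cycle, averaged 2976 ± 1079 on 9cRA arrays, against 1556 ± 561 on diet arrays, a difference of 0.91 ± 0.29. Of 30 glycolysis and citric acid cycle genes 0 passed, while 1 was higher and 3 lower at an unadjusted p. Ldhb, a subunit of lactate dehydrogenase, read 12802, 12370, 12799.7 and 12622 on 9cRA arrays 1 to 4, against 18165, 19338, 24018 and 16068 on diet arrays 1 to 4, with no overlap and a difference of -0.60 ± 0.18 (adjusted p = 0.148), whereas its partner probe set on the same sequence gave 0.09 ± 0.24. Hk1, hexokinase 1, averaged 1990.0 ± 219 on 9cRA arrays, against 1327 ± 289 on diet arrays, a difference of 0.59 ± 0.19 with no overlap, and its other probe set had the opposite sign, -0.32 ± 0.47, with overlapping groups. Of 39 ribosomal protein genes 0 passed, while 5 were higher and 2 lower at an unadjusted p, with Rplp0 at 0.65 ± 0.19 and Rpl3 at -0.64 ± 0.19 (-0.11 ± 0.16 on its other probe set). Ribosomal protein probe sets can read related transcripts and pseudogenes, so these are uncertain.

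Transcripts of liver and lung on the mammary gland arrays were examined as a group. Of 27 tested hepatocyte genes 0 passed, while 0 were higher and 3 lower at an unadjusted p, 21 differences were below 0 and the median was -0.42, and the summed signal ran from 60605 to 171119 on 9cRA arrays and from 120646 to 181721 on diet arrays. Tdo2, which opens the ring of tryptophan in liver, read 432, 90, 247 and 126 on 9cRA arrays 1 to 4, against 348, 665, 794 and 432 on diet arrays 1 to 4, a difference of -1.31 ± 0.44. Of 9 lung epithelial genes 0 passed, while 0 were higher and 0 lower at an unadjusted p, 2 differences were above 0 and 7 below, the median was -0.16, and the summed signal ran from 5784 to 14976 on 9cRA arrays and from 6491 to 17409 on diet arrays. The lung transcripts were high on 9cRA array 1 and diet arrays 1 and 4. Without all probe sets whose mean in diet liver or diet lung was at least 4 times that in diet mammary gland, 0 of 5276 probe sets passed and 957 had an unadjusted p under 0.05. The 499 tested sets that met this rule for liver had a median of 0.15, and the 371 that met it for lung 0.55. In all, 783 of 6059 tested sets met it. Of the 20 genes with the smallest p, the probe sets of Afdn, Ung, Fn1, Ace, Sec61a1, Ier3 and Dkc1 met it, all higher on 9cRA arrays. Those of Star, Crp and Arpc1b and of all the lower genes did not. That rule uses the diet mammary signal, which also enters the difference, and a low diet signal favours a difference above 0. The part of liver and lung transcripts in the results was not tested further.

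The 9cRA difference in mammary gland was then set against that in liver of the same study, in 1 fit of all 43 arrays. Of 5437 probe sets tested in both organs, 60 passed (1.10%), 43 with a mammary difference above the liver one (0.791%) and 17 below (0.313%). Of the 43 above, 37 were not rc_ sets, and of the 17 below, 10 were rc_ sets, where 41.3% of the sets tested in mammary gland were rc_ sets. The part of probe design in these calls was not tested. A pass here says that the organs differed, not that mammary gland changed. The ratio of 3′ to 5′ beta-actin signal was 1.17 to 1.56 on 9cRA liver arrays and 1.12 to 1.36 on diet liver arrays. In mammary gland it was 3.34 to 5.62 with 9cRA and 3.71 to 6.21 with diet. This sign of RNA quality thus differed between the organs, and its part in the calls was not tested. The count ran from 10 without 9cRA mammary array 2 to 195 without 9cRA mammary array 4, and was 185 without diet array 1, 26 without 9cRA array 1, 23 without diet array 3 and 19 without diet array 2. It was 34 without diet liver array 2, the diet liver array least like the others, an alternative added after the data were seen. The 8 genes with the smallest p among probe sets of 1 gene symbol are given here.

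Cd74 read 14029.8, 13849, 8097 and 7407 on 9cRA mammary arrays, against 7057, 4465, 4693 and 7740.2 on diet mammary arrays. In liver it read 2279.6, 1884, 3069.6 and 4202 on 9cRA arrays, against 5102, 5907, 5869 and 4666 on diet arrays. The liver groups did not overlap and were lower with 9cRA, and the organ difference was 1.80 ± 0.33 (adjusted p = 0.00785). Of the 4 probe sets of Cd74, 3 passed, and the last had a difference of 1.76 ± 0.47 (adjusted p = 0.0566). The class II gene RT1-Ba also passed on 1 of its 3 probe sets, at 2.01 ± 0.53 (adjusted p = 0.0468). Crot, the carnitine acyltransferase of peroxisomes, read 985, 1515, 659.5 and 1151 on 9cRA mammary arrays, against 1199, 2453, 2082 and 1797 on diet mammary arrays. In liver it read 1869, 2102, 2484 and 1796 on 9cRA arrays, against 849.8, 914, 694 and 969 on diet arrays. Its organ difference was -2.03 ± 0.38 (adjusted p = 0.00785), and its second probe set gave -0.98 ± 0.38 without passing, with a mammary difference of 0.47, on the opposite side of 0.

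Yif1a, a protein of transport between the endoplasmic reticulum and the Golgi, differed by 1.91 ± 0.39 (adjusted p = 0.0138), with 1.62 ± 0.28 in mammary gland and -0.29 ± 0.28 in liver, while its partner probe set gave 0.09 ± 0.22. The passing set of Yif1a was dim in mammary gland, at 213.3 to 775.2 on 9cRA arrays and 71.6 to 176.9 on diet arrays. Asl, argininosuccinate lyase of the urea cycle, differed by 1.41 ± 0.29 (adjusted p = 0.0126), with 0.60 ± 0.20 in mammary gland and -0.82 ± 0.20 in liver, and its other probe set gave 0.79 ± 0.28 without passing (adjusted p = 0.151). Lrrc59, a membrane protein of the endoplasmic reticulum, differed by 1.46 ± 0.30 (adjusted p = 0.0138), and Stxbp5, tomosyn, a regulator of vesicle fusion, by 1.63 ± 0.34 (adjusted p = 0.0147). For Stxbp5 the larger difference was in liver, -1.53 ± 0.24, against 0.10 ± 0.24 in mammary gland. In liver Stxbp5 read 35.8, 40.3, 26.2 and 67.9 on 9cRA arrays, against 165.9, 128.5, 239.5 and 251.7 on diet arrays. The 9cRA liver values lay near the pseudocount of 38.1, so this difference is limited by background. The second probe set of Lrrc59 gave 0.99 ± 0.29 without passing (adjusted p = 0.0782), and its mammary difference was -0.07. Lrrc59 and Stxbp5 lost their calls without 9cRA mammary array 2 (adjusted p = 0.0558 for each). Gstt2, a glutathione transferase, differed by -1.51 ± 0.29 (adjusted p = 0.00898), and its second probe set gave -0.10 ± 0.24. Rpl26, a ribosomal protein, differed by -2.60 ± 0.48 (adjusted p = 0.00785), with -0.26 ± 0.34 in mammary gland and 2.34 ± 0.34 in liver, while its second probe set gave 0.08 ± 0.22. Standard errors in this paragraph come from the fit of all arrays.

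**Figure D5:**
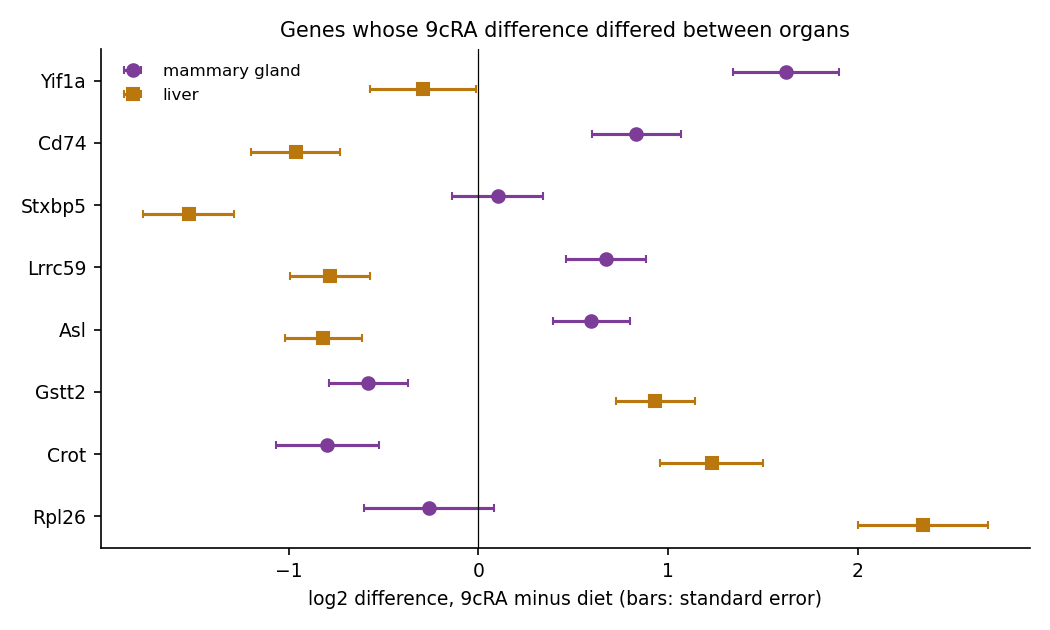
Log2 differences, 9cRA minus diet, in mammary gland (circles) and liver (squares), with standard errors from the fit of all 43 arrays, for the 8 genes with the smallest p for the difference between organs. Cd74, Lrrc59 and Asl lie above 0 in mammary gland and below 0 in liver, and Crot and Gstt2 the other way round.

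Against lung, 0 of 5498 probe sets passed by limma (0%), 409 (7.44%) had an unadjusted p under 0.05, and the smallest adjusted p was 0.357. The diet lung group held arrays 2, 3 and 4 only, while diet liver and diet mammary gland held arrays 1 to 4. The comparison with lung thus rests on fewer arrays than that with liver. Cyp7b1, an oxysterol hydroxylase, had the smallest p, with a mammary difference of -0.08 ± 0.29, a lung difference of 1.76 ± 0.31 and an organ difference of -1.84 ± 0.43. Star, among the 20 genes above, had 1.65 ± 0.41 in mammary gland and -0.50 ± 0.44 in lung, an organ difference of 2.15 ± 0.60 (adjusted p = 0.491). Arf5, a small GTPase of the Golgi, had 1.05 ± 0.21 in mammary gland and -0.02 ± 0.22 in lung (adjusted p = 0.491). These values did not pass and do not show that the organs differed or were alike. The ratio of 3′ to 5′ beta-actin signal was lower in lung too, 1.24 to 1.57 on 9cRA arrays and 1.28 to 1.54 on diet arrays.

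The other 2 agents in mammary gland were compared with the same 4 diet arrays, so their values are not independent of those of 9cRA, and doses and routes differed. Against diet, Targretin gave 796 calls (13.1%) and 4HPR gave 0 (0%). For Afdn the Targretin difference was 1.93 ± 0.29 (adjusted p = 0.00069), beside 1.39 ± 0.27 for 9cRA. For Ace it was 1.89 ± 0.25 (adjusted p = 0.00021), beside 1.09 ± 0.23 for 9cRA, and for Aifm2 -1.56 ± 0.23 (adjusted p = 0.00051), beside -0.999 ± 0.21. Cxcl14 differed by -1.29 ± 0.26 (adjusted p = 0.0062) with Targretin, beside -1.17 ± 0.24 with 9cRA. Of the 20 genes with the smallest p for 9cRA, Chordc1, Twf1, Rev1, Crp, Aadat, Nfe2l2 and Pcm1 did not pass with Targretin, while the rest did. Pcm1 differed by -0.28 ± 0.20 (adjusted p = 0.362). With 4HPR the differences were 1.05 ± 0.29 for Afdn, 0.48 ± 0.25 for Ace, -0.39 ± 0.23 for Aifm2 and -0.06 ± 0.26 for Cxcl14, none of them passing. The Crp probe set of uncertain gene differed by -0.50 ± 0.28 (adjusted p = 0.24) with Targretin, beside 1.15 ± 0.26 with 9cRA. The Crp set without the suffix for related transcripts differed by -1.70 ± 0.40 (adjusted p = 0.0149) with Targretin, beside 0.10 ± 0.37 with 9cRA. Whether the agents differ in these genes was not tested.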

How the data were processed

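Total RNA of rat mammary gland, liver and lung was measured on 1 array per sample. The deposited values are intensity signals made by the authors with MAS5 (per the submitters' processing notes), 1 per probe set on a linear scale. The MAS5 version, scanner settings and scaling target were not given in the sources used here, and no detection calls were used. The 2% trimmed mean of every array lay between 1501.78 and 1503.29, and the number of arrays limits the precision.

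Groups were taken from the sample titles. The log2 of the signal plus 38.1, the 10th percentile of all values, was tested with limma 3.58.1 in R 4.3.3 (lmFit, eBayes with a trend, Benjamini-Hochberg adjustment) at an adjusted p under 0.05, two-sided. The fit held all 14 mammary gland arrays, and a probe set was tested if it exceeded the array's 40th percentile on at least 3 of them. Organ differences came from a fit of all 43 arrays. Intervals are 95% intervals of limma. The scripts were tested on simulated data.

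Platform annotation gave 1 gene symbol for 7006 probe sets, several for 308 and none for 1426, covering 4736 genes. It can be old, and updating through gene identifiers changed 0 symbols. Genes from probe sets with several symbols were not named. The genes named are the 20 with the smallest p (since fewer than 20 were called), up to 2 of each list with the smallest p, the measured retinoid genes, the 8 with the smallest p for an organ difference, defining markers, and other probe sets of named genes. Members and lists were chosen with earlier results of these data known. The ribosomal list was corrected after the data were seen, since its pattern had also matched a kinase.

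Equal array numbers were not taken to pair arrays. Deviations from group means of same-numbered 9cRA and diet arrays correlated at 0.18, 0.035, -0.074 and 0.012, over tested probe sets. Those of same-numbered 9cRA and diet liver arrays correlated at -0.098 to 0.014, and those of same-numbered mammary gland and liver arrays at 0.029 to 0.087 for 9cRA and -0.084 to 0.066 for diet. The labels do not say whether a number shared between organs marks 1 animal. Alternatives were quantile normalization, no filter, a pseudocount 4 times larger, a replicate block, array weights, 9cRA and diet arrays only, 1 probe set per gene, and each of the 8 mammary gland arrays of 9cRA and diet left out. Arrays of the other groups and organs were not left out in turn. Added after the data were seen were fits without Targretin mammary array 3 (high in skeletal muscle transcripts), without liver- and lung-dominant probe sets, without diet arrays 2 and 3, and without diet liver array 2.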

Additional observations from a re-analysis of the deposited data

Results flagged for a closer look

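Of 194 sets of 4 arrays examined, 5 held 1 array far from the other 3. The sets were the 9cRA and the diet arrays for the 20 genes, for a part of the other named genes and for the 36 list sums. Other genes described above were not examined, among them Wap, which varied widely on 9cRA arrays. Chance gives about 1 in 20 for normally distributed values, so the 5 are fewer than that share. Many of the sets are of genes chosen for a small p, to which that share may not apply. Arpc1b read 3638.6 on 9cRA array 3, against 6904 to 7214 on the other 9cRA arrays. Ier3 read 363 on diet array 1, against 115 to 147 on the other diet arrays. Elovl5 read 18822 on 9cRA array 4, against 10003 to 11144 on the other 9cRA arrays. The summed signal of epithelial genes was 139371 on 9cRA array 4, against 78278 to 85391 on the other 9cRA arrays. That of immediate early genes was 71621 on 9cRA array 4, against 58330 to 60245 on the other 9cRA arrays.

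The 9cRA difference in mammary gland differed from that in liver, by the test of the difference itself, for the 8 genes already described. The organ difference, mammary gland minus liver, was 1.80 for Cd74, 1.91 for Yif1a, 1.41 for Asl, 1.46 for Lrrc59 and 1.63 for Stxbp5. It was -2.03 for Crot, -1.51 for Gstt2 and -2.60 for Rpl26.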

How the results depend on the processing

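Single-gene differences were computed under the alternatives for 72 values only, mostly of genes chosen for a small p. None changed sign, which that choice makes likely, so it does not measure how stable single-gene values are. Of the 36 list medians, 25 lay on both sides of 0 over the alternatives, among them that of the retinoid genes (-0.23 to 0.22). The medians of macrophage (0.20 to 0.48), T cell (0.14 to 0.40), hepatocyte (-0.69 to -0.23) and immediate early genes (-0.25 to -0.12) did not. In mammary gland, 0 probe sets passed under quantile normalization, no filter, the larger pseudocount, the replicate block, array weights, 9cRA and diet arrays only and 1 probe set per gene. The smallest adjusted p over these was 0.0512 without the filter. Leaving out 1 array gave 0 to 147 calls, 0 to 12 calls among the listed genes, and 700 to 1419 probe sets at an unadjusted p under 0.05. That count was 647 with 1 probe set per gene, where 3628 were tested, and 361 without diet arrays 2 and 3. Against liver, 60 calls became 34 with the replicate block, 34 without diet liver array 2, and 10 to 195 with 1 mammary array left out. The block left 0 calls in mammary gland and against lung, where leaving out 1 array also gave 0. Whether arrays of 1 number, across groups or organs, came from 1 animal is not stated. Of single-gene values in mammary gland, 1046 stayed on their side of the threshold and 27 passed it with an array left out (26 without diet array 1, and Fn1 without 9cRA array 4), and of those between organs 138 stayed and 2 lost their call (Lrrc59 and Stxbp5). Of list medians, 581 moved by less than the spread between arrays and 31 by more. Dim probe sets are limited by background, for which no detection calls were used here.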

Other observations

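Gene groups not described in the report also gave 0 calls by limma with all arrays. Of 47 drug, xenobiotic and glutathione genes, 7 were higher and 9 lower at an unadjusted p under 0.05, where 10.5% of all tested probe sets were higher and 8.10% lower, with a median of -0.03. Gss, glutathione synthetase, read 2209, 1994, 1699 and 1838 on 9cRA arrays 1 to 4, against 1457, 985, 1322 and 1069 on diet arrays 1 to 4, with no overlap and a difference of 0.67 ± 0.18 (adjusted p = 0.144), and its other probe set gave 1.06 ± 0.35. Cyp4f1, a fatty acid hydroxylase, read 991, 346, 521 and 384 on 9cRA arrays 1 to 4, against 976, 1439, 1172 and 1134 on diet arrays 1 to 4, a difference of -1.13 ± 0.30 (adjusted p = 0.144), with 9cRA array 1 near the diet values. Of 30 oxidative phosphorylation subunits, 2 were higher and 4 lower at an unadjusted p, with a median of -0.09, and of 40 fibroblast and matrix genes, 2 were higher and 5 lower, with a median of -0.08. Sparc, a matrix glycoprotein, averaged 15759 ± 8474 on 9cRA arrays, against 25993 ± 3033 on diet arrays, a difference of -0.88 ± 0.31, but its 3 other probe sets gave 0.17 ± 0.43, -0.48 ± 0.52 and -0.08 ± 0.26. Timp3, an inhibitor of metalloproteinases, averaged 677 ± 138 on 9cRA arrays, against 377 ± 160.3 on diet arrays, a difference of 0.84 ± 0.29. Of 34 skeletal muscle genes, 1 was higher and 0 lower at an unadjusted p, and of 25 amino acid breakdown genes 0 were in either direction.

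Over the 36 lists the median difference ran from -0.42 for hepatocyte genes to 0.69 for 7 erythroid genes. The 147 probe sets called without diet array 1 all had a difference of the same sign with all arrays. The fits share all other arrays, so that choice makes the same sign likely and is no support. For 62 of the 147 the groups did not overlap on all 8 arrays, beside 6.50% of all tested probe sets, and the choice favours this too. Of the 64 of the 147 that were lower 48 were rc_ sets, and of the 83 that were higher 15 were, where 41.3% of all tested sets were rc_ sets. Diet array 1 correlated with 9cRA arrays 1 to 4 at r = 0.938, 0.916, 0.934 and 0.929 over tested probe sets, and with diet arrays 2 to 4 at r = 0.919, 0.928 and 0.944, values that share the probe sets and their levels.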
